A study of Mus musculus with 2 samples.

Results

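Hypoxic spots poor in neutrophil genes were 564 of the 5772 spots in a pair of spatial transcriptomics libraries of mouse pancreatic tumors, 484 of 3552 in the library labelled KPC-shV and 80 of 2220 in the library labelled KPC-shZEB1. A spot is a small barcoded area of the section and usually covers several cells, which may be of different types. Spots were selected on their own expression values by a rule with 3 limits: at least 10000 unique molecular identifiers (UMIs, the counted molecules), under 2% of UMIs from the acinar genes Cpa1, Ctrb1, Prss2, Pnlip and Cela2a, and S100a8 plus S100a9, which neutrophils make in large amounts, under 500 UMIs per 1000000 (CPM). Of the spots past these limits, those were taken whose summed level of Car9, Slc2a1, Vegfa, Ndrg1, Adm, Bnip3, Ankrd37 and Egln3, called the hypoxia sum here, lay above the 80th percentile of the KPC-shV spots. The percentile gave a cutoff of 1568 CPM that was applied to both libraries, and the spots at or under it, called other spots, were the comparison. The name poor in neutrophil genes means under the 500 CPM limit. In KPC-shV the hypoxic spots held more S100a8 plus S100a9 than the other spots, at 224 against 111 CPM. Because these 15 genes chose the spots, their values are a description and not a result.

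Cells sense oxygen through prolyl hydroxylases that mark the alpha subunits of the hypoxia-inducible factor (HIF) for VHL-dependent destruction. When oxygen is scarce the alpha subunit is kept, pairs with ARNT, binds DNA at short cores such as ACGTG and switches on genes for glucose uptake, glycolysis, acid export, blood vessel growth and mitochondrial turnover. Pancreatic ductal adenocarcinoma is known for dense stroma and sparse, compressed vessels, and poorly oxygenated areas are common in it.

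KPC is a pancreatic cancer line that the study derived from genetically engineered mice with Pdx-1-Cre, a recombinase active in the pancreas, and the tumors were allografts grown in the pancreas after injection of KPC cells carrying the control vector (KPC-shV) or a lentiviral short hairpin against Zeb1 (KPC-shZEB1), a transcriptional repressor of epithelial genes. The methods list 2 tumors per group for this assay. Here 1 library per group was analysed, and no label says which tumor it covers. The study presents the tissues with its tumors treated with gemcitabine, a chemotherapy that the labels do not name, and describes those hosts as immunocompetent. The methods list C57BL/6J, BALB/c and NSG hosts of 4 to 6 weeks without naming the strain used here. Several stable lines were selected for the knockdown by puromycin or geneticin, and which of them was injected is not stated. Tissue was frozen, fixed in methanol and read with the probe-based Visium CytAssist assay, in which each gene is counted by its own probes, so that UMIs of different genes show the part of each gene in a sum and not the order of their transcripts. With 1 library per condition there was no replicate and no test, the tumor, the section and the knockdown cannot be told apart, and all 95% intervals cover counting error only. Zeb1 itself did not separate the libraries in the direction of the labels: its level was 8.53 CPM in the hypoxic and 14.1 in the other spots of KPC-shV, and 11.9 and 15.5 CPM in those of KPC-shZEB1. The Zeb1 transcript was thus somewhat more abundant in the library labelled KPC-shZEB1 in both kinds of spots, and the log2 ratio was 0.49 (95% interval 0.00 to 0.94) in the hypoxic and 0.14 (95% interval 0.03 to 0.25) in the other spots. Stromal cells also express Zeb1, and whether tumor cells carried less of it was not tested. This gene does not bear out the labels, and whether they are right was not settled here. The paper reports more T cells and fewer neutrophils after the knockdown, from proportions of cells, staining and spatial data. T cell genes stood at 44.6 CPM in the other spots of KPC-shV and 169 CPM in those of KPC-shZEB1. The neutrophil limit removed 440 KPC-shV and 17 KPC-shZEB1 spots and left 2417 and 1332. These are RNA levels and numbers of spots on unequal bases, not proportions of cells. Whether these values bear on the labels was not tested. Differences between the libraries are therefore given as differences between libraries with these labels. Where a pair of values is given without names, KPC-shV comes before KPC-shZEB1, and single-gene ratios are given for genes past 20 CPM in at least 1 of these 4 groups of spots, with Zeb1 as the exception.

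The limits removed spots mainly for different reasons in the libraries. In KPC-shV, 390 spots fell under the depth limit, 305 more exceeded the acinar limit and 440 the neutrophil limit, which left 2417 spots. In KPC-shZEB1 the corresponding numbers were 13, 858 and 17, which left 1332. The acinar limit thus took out mainly KPC-shZEB1 spots and the neutrophil limit mainly KPC-shV spots. Hypoxic spots held a median of 58868.5 UMIs in KPC-shV (range 11102 to 118408) and 47502.5 in KPC-shZEB1 (23830 to 102440), against 65306 and 60565.5 in the other spots, and a median of 8813 and 8318 detected genes against 9258 and 9071.5. Pooled, they held 27777936 and 3934572 UMIs, so that a gene without a UMI could still be present at up to 0.108 and 0.762 CPM (3 counts). Of the barcodes, which come from a fixed set printed on each slide, 1718 occurred in both libraries, 7 of them in hypoxic spots of both.

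The rule fixed the share of hypoxic spots at 20.02% of the spots past the limits in KPC-shV. In KPC-shZEB1 the same cutoff was exceeded by 6.01% of the spots (exact binomial 95% interval 4.79 to 7.42%). Without the neutrophil limit the 80th percentile of KPC-shV was higher, and 2.22% of the KPC-shZEB1 spots exceeded it. The median hypoxia sum over all spots past the limits was 499.99 CPM in KPC-shV and 316 CPM in KPC-shZEB1, and the 80th percentile of KPC-shZEB1 alone was 589 CPM. Within the hypoxic spots the sum ran from 1569 CPM through a median of 2624 to 9263 in KPC-shV and from 1600.1 through 2205 to 8738 in KPC-shZEB1. The values formed a continuous slope without a gap at the cutoff: 43 KPC-shV spots lay within 10% above it and 48 within 10% under it, 9 and 12 in KPC-shZEB1, and the highest other spots reached 1566 and 1561 CPM. The class is therefore a range of a graded measure.

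**Figure D1:**
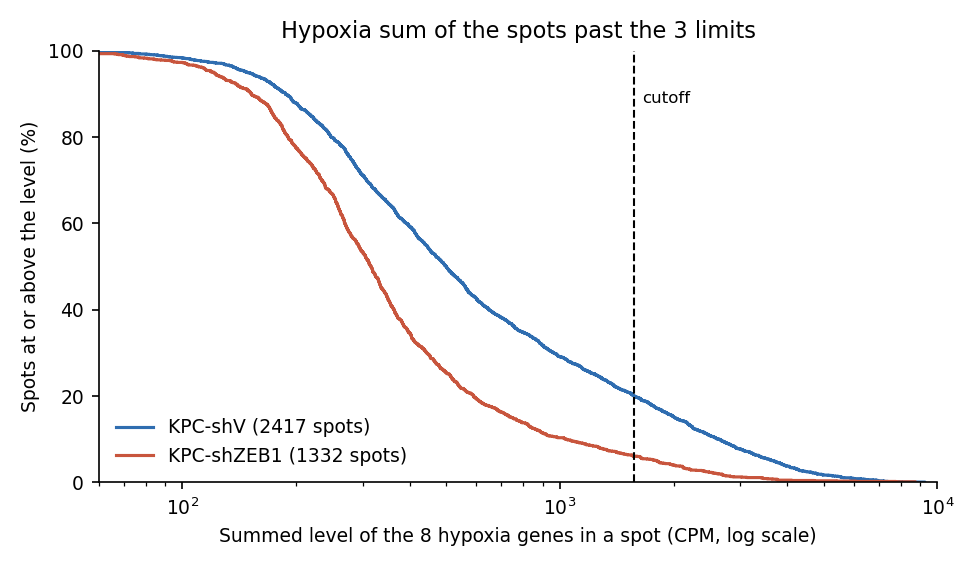
Share of spots (y axis, percent) whose summed level of the 8 hypoxia genes (x axis, CPM on a log scale) was at or above each value, for the 2417 KPC-shV and 1332 KPC-shZEB1 spots past the 3 limits, with the cutoff dashed. The curves fall smoothly through the cutoff, which 20.02% of KPC-shV and 6.01% of KPC-shZEB1 spots exceeded.

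Egln3, an oxygen-sensing prolyl hydroxylase that HIF itself induces, gave the largest part of the UMIs in the hypoxia sum, 34.8% in the hypoxic spots of KPC-shV and 46.1% in those of KPC-shZEB1. It was the highest of the 8 genes in 375 of 484 and 75 of 80 hypoxic spots. Its level was 986 CPM in the hypoxic and 173 in the other spots of KPC-shV, and 1186 and 170.5 CPM in those of KPC-shZEB1. Slc2a1, the glucose transporter GLUT1, led the remaining KPC-shV spots in 104 cases, and its level was 617 CPM in the hypoxic and 129 in the other spots of KPC-shV, and 282 and 67.8 CPM in those of KPC-shZEB1. Slc2a1 was thus lower in the hypoxic spots of KPC-shZEB1 than in those of KPC-shV (log2 ratio -1.13), while Egln3 was slightly higher (0.27). Car9, the membrane carbonic anhydrase that handles exported acid, stood at 203 CPM in the hypoxic and 34.4 in the other spots of KPC-shV, and 276 and 28.9 CPM in those of KPC-shZEB1. For Vegfa, the main vascular growth factor, the levels were 376 CPM in the hypoxic and 75.7 in the other spots of KPC-shV, and 185 and 31.6 CPM in those of KPC-shZEB1. In hypoxic spots the log2 ratios, KPC-shZEB1 over KPC-shV, were 0.44 for Car9 and -1.02 for Vegfa, whereas in the other spots both genes were lower in KPC-shZEB1. The cutoff acted on the sum of the 8 genes, so their signs between the hypoxic spots are tied to each other and are a description. Bnip3, a mitophagy receptor, stood at 191 and 152 CPM in the hypoxic spots of KPC-shV and KPC-shZEB1, Ndrg1, a stress-responsive gene, at 296 and 284 CPM, and Ankrd37, an ankyrin repeat gene, at 110.2 and 143 CPM. Adm, the vasodilator peptide adrenomedullin, had the fewest UMIs at 57.6 and 61.8 CPM and had no UMI in 79 of 484 and 23 of 80 hypoxic spots. Each of the other 7 genes had a UMI in at least 97.5% of the hypoxic spots of each library.

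The promoters of most of these genes held the HIF core in the RefSeq windows (GRCm38.p6, mm10 in the submitters' notes and 250 bases before to 50 after the start). The letters ACGTG were searched on both strands, which on the printed strand means ACGTG or CACGT. Of the 7 selection genes with a window, 6 held it in at least 1 window, Adm did not, and Ndrg1 had none to search. For Vegfa the window at the gene start held no core. Its match lay in another window inside the gene, where the stretch overlaps an exon but no untranslated region in GENCODE M21. The core was present in 21.8% of the 27025 genes with a window, in 12 of 21 HIF targets outside the rule, in 9 of 13 glycolytic enzymes and in 1 of 5 fibroblast genes. A match is a description of the letters and not a bound site. The stretches below show where the core lay in the selection genes Bnip3 and Egln3 and in Ero1a and P4ha1, targets outside the rule that differed between hypoxic and other spots, with the core in capitals and up to 25 bases on either side, fewer where the start site or the edge of the window comes first.
Bnip3: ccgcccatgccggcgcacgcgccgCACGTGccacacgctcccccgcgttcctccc
Egln3: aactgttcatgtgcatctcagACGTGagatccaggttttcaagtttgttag
Ero1a: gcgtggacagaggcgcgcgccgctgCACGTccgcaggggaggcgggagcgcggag
P4ha1: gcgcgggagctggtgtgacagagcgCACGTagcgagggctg
These lie at chr7:138909584-138909638, minus strand for Bnip3, chr12:54204074-54204124, minus strand for Egln3, chr14:45318606-45318660, minus strand for Ero1a (listed as Ero1l in the files) and chr10:59323255-59323295, plus strand for P4ha1. All 4 stretches lie before the RefSeq start and outside exons of GENCODE M21, and that of Ero1a lies within the longest extent of the gene there. In Bnip3 both readings overlap in the palindrome CACGTG. The core nearest the RefSeq start began 16 bases before it in P4ha1, 63 in Ero1a, 107 in Bnip3 and 229 in Egln3. In Ankrd37, Slc16a3, Car9 and Slc2a1 it began 6, 14, 18 and 36 bases before the RefSeq start, and the stretches around these, which overlap an untranslated region in GENCODE M21, are not printed. Of the selection genes without a printed stretch, Car9 lies at chr4:43506966-43513729, Slc2a1 at chr4:119108711-119137983, Ankrd37 at chr8:45996902-46005707, Vegfa at chr17:46016993-46032369, Ndrg1 at chr15:66929318-66969640 and Adm at chr7:110627661-110629820 (GENCODE M21, GRCm38).

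Genes known as HIF targets that took no part in the selection were higher in the hypoxic spots of both libraries. Their summed level over the 28 of 30 listed genes that the files hold was 6398 CPM in the hypoxic and 2465 in the other spots of KPC-shV, and 5837 and 2089 CPM in those of KPC-shZEB1, log2 ratios of 1.38 and 1.48 (95% intervals 1.37 to 1.38 and 1.46 to 1.503). Per spot, the ranges of hypoxic and other spots overlapped (3322 to 14041 and 1089.9 to 6006 CPM in KPC-shV), but the middle 50% did not. The quartiles were 5127 to 7741 against 1896 to 2799 CPM in KPC-shV, and 4202 to 6622 against 1678 to 2338 CPM in KPC-shZEB1. Of the 22 targets with at least 20 CPM in the higher group of spots in each library, 19 were higher by at least 1.5-fold in KPC-shV and 18 in KPC-shZEB1, against 4.10% and 6.53% of the 7749 genes past the same minimum. Their median log2 ratio was 1.38 and 1.44, beside -0.02 and 0.02 over all those genes. The label hypoxic was thus met by genes outside the rule in both libraries.

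The strongest targets covered several roles. Ero1l, the oxidase that forms disulfide bonds in the endoplasmic reticulum, stood at 378 CPM in the hypoxic and 67.00 in the other spots of KPC-shV, and 531 and 74.6 CPM in those of KPC-shZEB1. Hilpda, which blocks lipid droplet breakdown, stood at 370.3 CPM in the hypoxic and 71.6 in the other spots of KPC-shV, and 189 and 29.7 CPM in those of KPC-shZEB1, and Ak4, a mitochondrial adenylate kinase, at 93.4 against 21.6 CPM in KPC-shV and 95.6 against 20.1 CPM in KPC-shZEB1. The log2 ratios of these 3 genes were 2.50, 2.37 and 2.11 in KPC-shV and 2.83, 2.67 and 2.25 in KPC-shZEB1. Of the collagen prolyl hydroxylases, P4ha1 had log2 ratios of 1.24 and 1.13 and P4ha2 of 1.70 and 1.78. Egln1, the main oxygen-sensing hydroxylase, had log2 ratios of 1.76 and 1.84. Pdk1, which keeps pyruvate out of the mitochondrion, stood at 249.5 against 93.4 CPM in KPC-shV and 237 against 88.8 CPM in KPC-shZEB1, and Slc16a3, the lactate exporter MCT4, at 202 against 58.9 CPM in KPC-shV and 120.2 against 32.7 CPM in KPC-shZEB1. Some listed targets did not follow. Plod1, a collagen lysyl hydroxylase, was lower in both libraries (log2 ratios of -0.62 and -0.85), and Stc1, a secreted glycoprotein, stood at 34.8 CPM in the other spots of KPC-shV and at only 3.996, 4.57 and 3.56 CPM in the hypoxic spots of KPC-shV and in the hypoxic and other spots of KPC-shZEB1. Plin2, a lipid droplet protein, had log2 ratios of 0.58 and 0.20, and Pfkfb4, a regulator of glycolytic flux, of 0.26 and 0.40.

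Glycolytic enzymes were higher together, with 10 of 11 past 1.5-fold in both libraries against 3.10% of all tested genes, and a summed level of 9305 CPM in the hypoxic and 4414 in the other spots of KPC-shV, and 8589.5 and 3795 CPM in those of KPC-shZEB1 (log2 ratios of 1.08 and 1.18). Pgk1, phosphoglycerate kinase, stood at 1235 CPM in the hypoxic and 449.9 in the other spots of KPC-shV, and 1431 and 467 CPM in those of KPC-shZEB1. The phosphofructokinases Pfkl (log2 ratios of 1.46 and 1.37) and Pfkp (log2 ratios of 1.60 and 1.26) were higher, whereas the muscle form Pfkm had log2 ratios of 0.02 and 0.28. Hexokinase 2 (Hk2) was higher by log2 ratios of 1.31 and 1.07, Aldoa, summed over its 2 identifiers, by 1.18 and 1.36, and Pkm, pyruvate kinase, by 0.86 and 0.95. Ldha, Tpi1 and Eno1 are not among the features analysed here, and the probes for Gapdh gave only 2.18 to 4.32 CPM in the 4 groups. Bsg, the chaperone of the lactate exporters, had 1814 against 915 CPM in KPC-shV and 2449 against 864 CPM in KPC-shZEB1. Nuclear genes of the respiratory chain and the citric acid cycle differed little, with a summed level of 3862 CPM in the hypoxic and 4363 in the other spots of KPC-shV, and 4201 and 4825 CPM in those of KPC-shZEB1 and log2 ratios of -0.18 and -0.20. Of the 17 such genes past the minimum, 0 were lower by 1.5-fold in KPC-shV and 1 in KPC-shZEB1 (Ogdh, log2 ratios of -0.48 and -0.62), beside 8.22% and 8.47% of all tested genes. The list of acid and lactate transporters summed to log2 ratios of 0.95 and 1.33, carried by Bsg and Slc16a3.

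**Figure D2:**
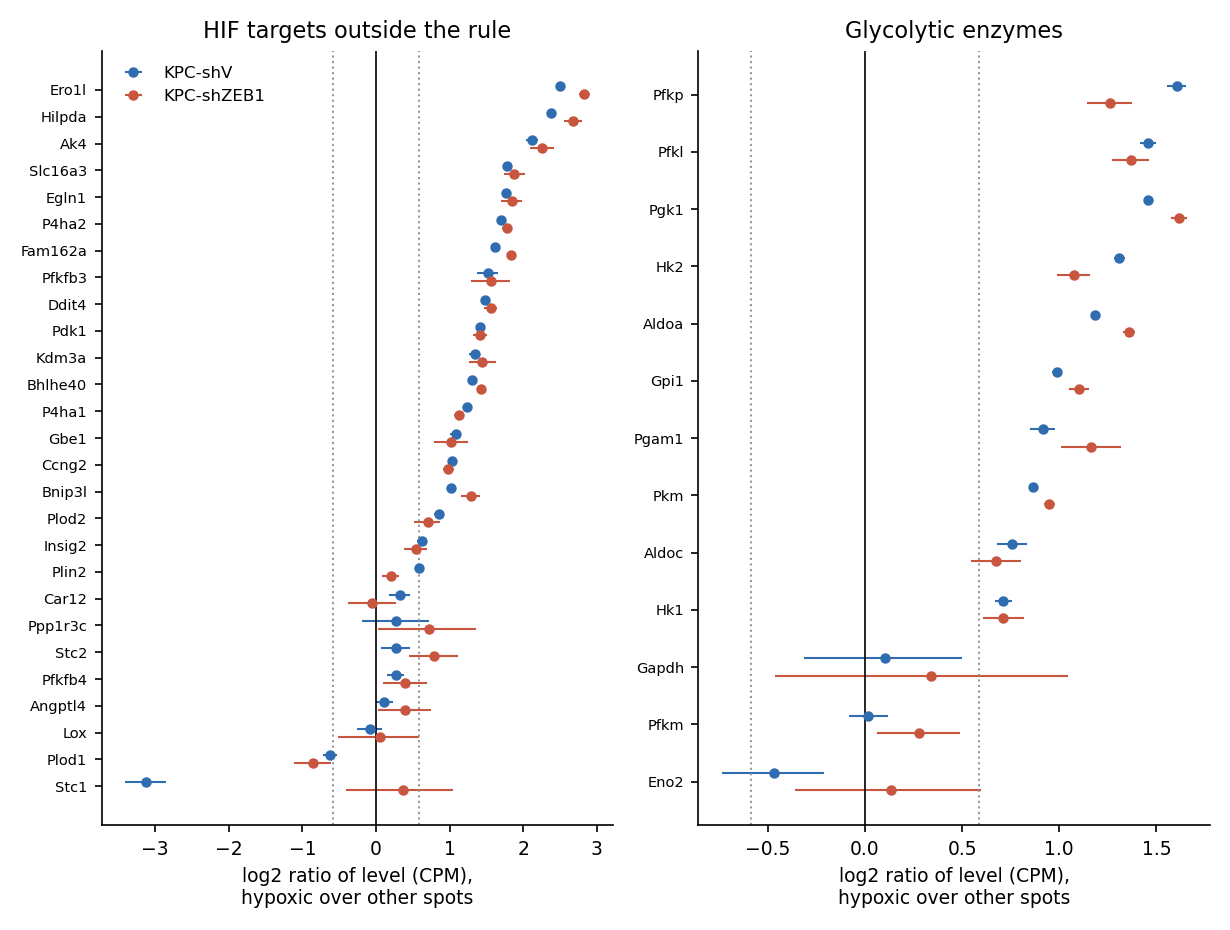
Log2 ratio of level (CPM) in hypoxic over other spots (x axis) for HIF targets outside the rule (left) and glycolytic enzymes (right), with KPC-shV in blue and KPC-shZEB1 in red, 95% intervals for counting error as bars and 1.5-fold as dotted lines. Most genes lie right of the upper dotted line in both libraries, and Plod1 and, in KPC-shV, Stc1 (-3.12) lie on the left.

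The genes of the oxygen-sensing machinery differed less than its targets. Hif1a, the HIF-1 alpha subunit, stood at 286 CPM in the hypoxic and 305 in the other spots of KPC-shV, and 241 and 344 CPM in those of KPC-shZEB1, Arnt, its partner, had log2 ratios of 0.37 and 0.30, and Vhl log2 ratios of 0.13 and 0.19. Epas1, the HIF-2 alpha subunit that endothelium expresses strongly, was past 1.5-fold, and lower, in KPC-shV and not in KPC-shZEB1 (log2 ratios of -1.07 and -0.07), and Hif3a, an alpha subunit that is itself a HIF target, was the member past 1.5-fold in both libraries, with 39.96 against 12.4 CPM in KPC-shV and 57.9 against 8.63 CPM in KPC-shZEB1 (log2 ratios of 1.69 and 2.75). Stress genes were mixed. Vldlr, a lipoprotein receptor induced by hypoxia and by ATF4, stood at 141 against 34.3 CPM in KPC-shV and 206 against 40.3 CPM in KPC-shZEB1, and Ddit3, the stress factor CHOP, at 75.3 against 40.5 CPM in KPC-shV and 67.9 against 38.6 CPM in KPC-shZEB1. Hspa5, the chaperone BiP, had log2 ratios of 0.24 and -0.02, and Asns, a classical ATF4 target, log2 ratios of -0.04 and 0.17, so of the 10 stress genes past the minimum 2, Vldlr and Ddit3, were higher by at least 1.5-fold in both libraries, beside 3.10% of all tested genes. The list as a whole had log2 ratios of 0.32 and 0.17. Hmox1, heme oxygenase 1, was past 1.5-fold in KPC-shV alone: it stood at 251 CPM in the hypoxic and 115 in the other spots of KPC-shV, and 131 and 125 CPM in those of KPC-shZEB1. The redox and iron list summed to log2 ratios of -0.08 and -0.60, and Fth1, the ferritin heavy chain, gave most of its UMIs (log2 ratios of -0.19 and -0.80).

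Epithelial genes were modestly higher in hypoxic spots, and epithelial transcripts were abundant in them. The summed level of 9 epithelial genes was 9255 CPM in the hypoxic and 6914 in the other spots of KPC-shV, and 9558 and 6491 CPM in those of KPC-shZEB1 (log2 ratios of 0.42 and 0.56), and the levels of all 9 were above those of the other spots. Past 1.5-fold were 2 of the 9 in KPC-shV, 4 in KPC-shZEB1 and 1, Krt19, in both (log2 ratios of 0.70 and 0.66), beside 4.10%, 6.53% and 3.10% of all tested genes. Muc1 had log2 ratios of 0.57 and 1.11, Krt7, with the most UMIs, of 0.44 and 0.49, and Epcam of 0.40 and 0.38. Sprr1a, a cornified envelope gene of stressed epithelium, was 211 against 105 CPM in KPC-shV and 285 against 68.9 CPM in KPC-shZEB1, whereas the squamous keratins Krt5, Krt6a and Krt13 were near the detection limit with at most 1.15 CPM. Cdkn1a, the cell cycle inhibitor p21, was higher (260.2 against 138 CPM in KPC-shV and 180.2 against 83.4 CPM in KPC-shZEB1), Cdkn1b had log2 ratios of 0.39 and 0.68, and Cdkn2a, the Ink4a and Arf locus, log2 ratios of 0.29 and 0.58. Proliferation genes were slightly lower as a group (log2 ratios of -0.33 and -0.21), and none of 10 passed 1.5-fold, beside 8.22% and 8.47% of all tested genes that were lower by that much. Mki67, the standard cycling marker, stood at 219 against 327 CPM in KPC-shV and 328 against 348 CPM in KPC-shZEB1. Among mesenchymal genes Vim was 1368 against 1536 CPM in KPC-shV and 2479.6 against 2094 CPM in KPC-shZEB1 and Fn1 2725 against 2553 CPM in KPC-shV and 2189 against 1929 CPM in KPC-shZEB1, neither past 1.5-fold within a library.

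Stromal and vascular genes were lower in hypoxic spots. The summed level of 10 fibroblast genes was 2327 CPM in the hypoxic and 7831 in the other spots of KPC-shV, and 3381 and 8259 CPM in those of KPC-shZEB1 (log2 ratios of -1.75 and -1.29), and 9 and 8 of 9 were lower by at least 1.5-fold, against 8.22% and 8.47% of all tested genes. Col1a1, a chain of type I collagen, stood at 857 CPM in the hypoxic and 2590.2 in the other spots of KPC-shV, and 1094 and 2758 CPM in those of KPC-shZEB1, and Dcn, the matrix proteoglycan decorin, at 22.1 against 86.4 CPM in KPC-shV and 39.4 against 181 CPM in KPC-shZEB1. Acta2, smooth muscle actin, differed less (log2 ratios of -0.59 and -0.57). Fibroblast genes were still detected in hypoxic spots: after each spot was thinned to 10000 UMIs, 483 of 484 and 79 of 80 carried at least 1 of their UMIs. In spots, fewer cells of a type and less RNA per cell cannot be told apart.

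Endothelial genes were lower as well. Their summed level was 194 CPM in the hypoxic and 515 in the other spots of KPC-shV, and 134 and 351 CPM in those of KPC-shZEB1 (log2 ratios of -1.41 and -1.39). Plvap, a component of fenestrated endothelium, stood at 30.02 CPM in the hypoxic and 161 in the other spots of KPC-shV, and 11.2 and 99.5 CPM in those of KPC-shZEB1, Kdr, the receptor for VEGF-A, at 5.29 against 27.95 CPM in KPC-shV and 3.304 against 18.8 CPM in KPC-shZEB1, and Pecam1, the pan-endothelial marker CD31, at 10.9 against 32.6 CPM in KPC-shV and 5.08 against 26.2 CPM in KPC-shZEB1. Of the 11 genes, 5 were past the minimum, and 4 of these were lower by at least 1.5-fold in both libraries, against 6.26% of all tested genes. Flt1, the remaining one, a VEGF-A receptor that acts largely as a decoy and is itself a HIF target, went the other way (77.7 against 61.3 CPM in KPC-shV and 80.3 against 32.1 CPM in KPC-shZEB1). All 11 genes kept UMIs in the hypoxic spots of both libraries, and at 10000 UMIs per spot 79.3% of hypoxic against 90.1% of other KPC-shV spots, and 67.5% against 82.7% of KPC-shZEB1 spots, carried an endothelial UMI. Among angiogenic ligands outside the rule, Pgf, placental growth factor, was higher with 38.4 against 7.08 CPM in KPC-shV and 25.7 against 3.09 CPM in KPC-shZEB1, Vegfb had log2 ratios of 0.27 and 0.34, and Fgf2 of -1.19 and -0.64. Red blood cell genes were low in every group, at 20.4 against 40.1 CPM in KPC-shV and 9.15 against 19.6 CPM in KPC-shZEB1.

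Macrophage genes were lower, with all 6 genes past the minimum lower by at least 1.5-fold in both libraries, as were 6.26% of all tested genes. The summed level was 631 CPM in the hypoxic and 2057 in the other spots of KPC-shV, and 847 and 2627 CPM in those of KPC-shZEB1 (log2 ratios of -1.71 and -1.63), and C1qa, a complement subunit of tissue macrophages, stood at 178 against 636 CPM in KPC-shV and 262 against 824 CPM in KPC-shZEB1. The genes of the macrophage state list did not all share that direction. Nos2, the inducible nitric oxide synthase, was 96.2 against 19.98 CPM in KPC-shV and 92.8 against 33.03 CPM in KPC-shZEB1 (log2 ratios of 2.27 and 1.49). It can be made by myeloid cells and by tumor cells, and the spots do not tell the source. Spp1, osteopontin, had by far the most UMIs of that list, 8889.7 CPM in the hypoxic spots of KPC-shV, and was nearly level (log2 ratios of 0.18 and 0.19), while Trem2, a lipid sensor of macrophages, followed the macrophage genes (log2 ratios of -1.20 and -1.14).

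MHC class II genes were the list with the lowest log2 ratio in KPC-shV, and the same direction was seen in KPC-shZEB1, with a summed level of 1453 CPM in the hypoxic and 5999 in the other spots of KPC-shV, and 3981 and 10955 CPM in those of KPC-shZEB1 (log2 ratios of -2.05 and -1.46). Cd74, the invariant chain, stood at 1079 CPM in the hypoxic and 4255 in the other spots of KPC-shV, and 2856 and 7389 CPM in those of KPC-shZEB1, and all 5 genes, Ciita included, were lower by more than 1.5-fold in both libraries, against 6.26% of all tested genes. MHC class I genes summed to log2 ratios of 0.05 and -0.43, and their members differed. Tap2, a subunit of the peptide transporter, and Tapbp, which links it to class I molecules, were lower by at least 1.5-fold in both libraries (log2 ratios of -0.74 and -0.74 for Tap2 and of -0.75 and -0.72 for Tapbp), 2 of 7 genes against 6.26% of all tested genes. The sum rested on the abundant H2-D1, H2-K1 and B2m. In KPC-shZEB1, B2m, the shared light chain, was 2872 against 3395 CPM and H2-D1 1799 against 2712 CPM. Interferon-induced genes were lower as a list (log2 ratios of -0.96 and -0.97) and split by gene. Cxcl9, a T cell chemoattractant induced by interferon gamma, was 122 against 412 CPM in KPC-shV and 356 against 1045 CPM in KPC-shZEB1, and Gbp2 was 106 against 303 CPM in KPC-shV and 330.4 against 758 CPM in KPC-shZEB1, whereas Ifit1, which type I interferon induces, was 34.9 against 29.8 CPM in KPC-shV and 86.9 against 33.6 CPM in KPC-shZEB1 and Irf7 148 against 91.7 CPM in KPC-shV and 141 against 105 CPM in KPC-shZEB1.

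Lymphocyte genes were at low levels throughout and lower still in hypoxic spots. The 9 T cell genes summed to 12.4 CPM in the hypoxic and 44.6 in the other spots of KPC-shV, and 33.5 and 169 CPM in those of KPC-shZEB1. Their log2 ratio was -1.85 (95% interval -2.01 to -1.69) in KPC-shV and -2.33 (95% interval -2.59 to -2.09) in KPC-shZEB1. Cd3e, a subunit of the T cell receptor complex, stood at 1.62 against 7.19 CPM in KPC-shV and 5.34 against 32.3 CPM in KPC-shZEB1, and Trac, the receptor alpha constant region, at 3.24 against 11.2 CPM in KPC-shV and 8.39 against 41.2 CPM in KPC-shZEB1. After thinning to 10000 UMIs, a T cell UMI was found in 12.6% of hypoxic and 35.2% of other KPC-shV spots, and in 30.00% and 69.4% of KPC-shZEB1 spots (45.9% and 77.8%, and 71.2% and 95.8%, unthinned). As a rough level of background, the 4 islet hormone genes, which tumor tissue should lack, were counted at that depth. A UMI of them was found in 4.34% and 6.25% of hypoxic and in 5.85% and 8.79% of other spots. These are fewer genes than the T cell list, and the other spots of KPC-shZEB1 held islet RNA at 48.4 CPM. A T cell UMI was thus less frequent in hypoxic spots of both libraries, and more frequent in those of KPC-shZEB1 than in those of KPC-shV. The lists for NK cells (log2 ratios of -1.43 and -1.41), dendritic cells (log2 ratios of -1.09 and -1.61) and B cells (log2 ratios of -0.56 and -1.76) had the same sign at 8.68, 11.1 and 7.200 CPM in KPC-shV and 16.01, 13.98 and 10.2 CPM in KPC-shZEB1 hypoxic spots.

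**Figure D3:**
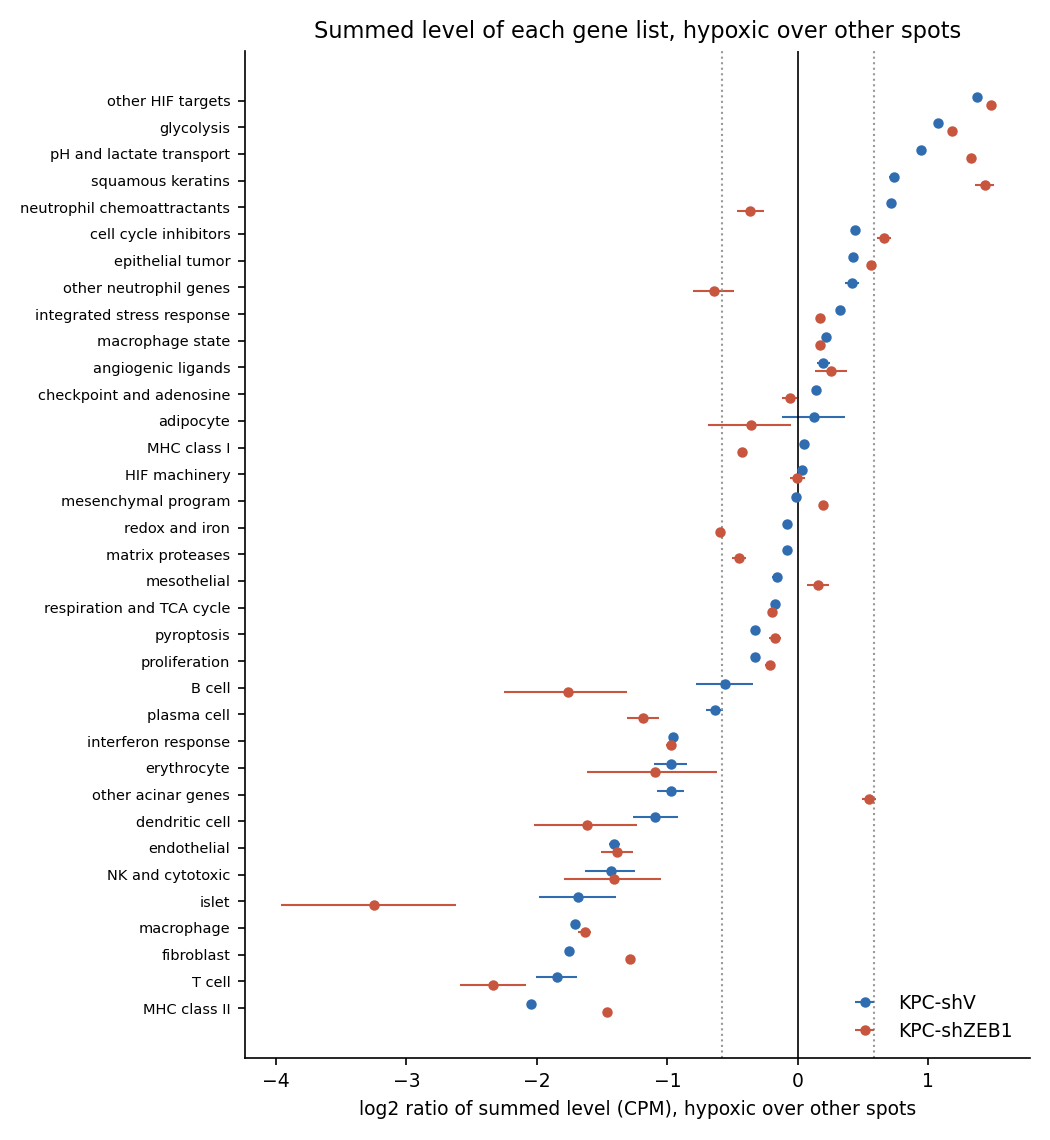
Log2 ratio of the summed level (CPM) of each gene list in hypoxic over other spots (x axis), with KPC-shV in blue, KPC-shZEB1 in red, 95% intervals for counting error as bars and 1.5-fold as dotted lines. HIF targets, glycolysis and lactate transport lie on the right in both libraries, stromal, vascular and most immune lists on the left, and the neutrophil chemoattractants (0.72 and -0.36), other neutrophil genes and acinar genes on opposite sides.

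Neutrophil genes and the chemokines that recruit neutrophils had opposite signs in the libraries. The limit kept S100a8 plus S100a9 under 500 CPM in each spot, and within it their summed level was 224 CPM in the hypoxic and 111 in the other spots of KPC-shV, and 68.1 and 75.9 CPM in those of KPC-shZEB1. The 12 neutrophil genes outside the rule summed to 141 CPM in the hypoxic and 106 in the other spots of KPC-shV, and 88.4 and 138 CPM in those of KPC-shZEB1, log2 ratios of 0.42 (95% interval 0.36 to 0.47) and -0.65 (95% interval -0.80 to -0.49). Csf3r, the receptor for the neutrophil growth factor G-CSF, had the most UMIs of them and stood at 31.5 against 30.98 CPM in KPC-shV and 20.6 against 33.1 CPM in KPC-shZEB1, and Ly6g, the defining mouse neutrophil marker, was at 1.78 to 3.57 CPM in the 4 groups. The sign in KPC-shZEB1 turned without the neutrophil limit (log2 ratio of 0.33). Chemoattractants for neutrophils summed to 904 CPM in the hypoxic and 551 in the other spots of KPC-shV, and 207 and 266 CPM in those of KPC-shZEB1, log2 ratios of 0.72 (95% interval 0.69 to 0.74) and -0.36 (95% interval -0.47 to -0.26). Cxcl5, with the most UMIs, stood at 659 CPM in the hypoxic and 404 in the other spots of KPC-shV, and 144 and 174 CPM in those of KPC-shZEB1, and Cxcl1 at 135 against 83.6 CPM in KPC-shV and 27.96 against 35.8 CPM in KPC-shZEB1. Between the hypoxic spots of the libraries the chemoattractants differed, KPC-shZEB1 over KPC-shV, by a log2 ratio of -2.13 (95% interval -2.23 to -2.03), and between the other spots of -1.05 (95% interval -1.07 to -1.03). The neutrophil genes outside the rule went the same way in hypoxic spots (-0.67) but not in other spots (0.39), and their part in the difference was not tested.

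The same lists were read across 6 bins of the hypoxia sum with edges at the 20th, 40th, 60th, 80th and 90th percentiles of KPC-shV, which put 440, 418, 238, 156, 54 and 26 KPC-shZEB1 spots into bins 1 to 6. Bins 5 and 6 are the hypoxic spots. HIF targets outside the rule went from 1945 CPM in bin 1 to 3413 in bin 4 and 7933 in bin 6 of KPC-shV, and from 1740.1 to 3089.9 and 7519.8 in KPC-shZEB1. In the same bin the libraries thus had HIF target levels close to each other, although they held different shares of hypoxic spots. The bins match spots of both libraries on the hypoxia sum, so this closeness is not independent of the bins. Fibroblast genes went from 12854 to 3339.8 and 2135 CPM in KPC-shV, so most of their decrease lay under the cutoff. Endothelial genes stood at 729.6 CPM in bin 1, 188 in bin 5 and 202 in bin 6 of KPC-shV, and at 518, 152 and 100.5 CPM in those of KPC-shZEB1, so that between the last 2 bins they no longer decreased in KPC-shV and were lower in KPC-shZEB1. T cell genes went from 218 CPM in bin 1 to 42.7 in bin 5 and 15.7 in bin 6 of KPC-shZEB1, and from 59.3 to 13.3 and 11.2 in KPC-shV. Proliferation genes had a different shape. They were highest in bin 3 (1811 CPM in KPC-shV, 1677 in KPC-shZEB1) and lowest in bin 6 (1168 and 1199.8), and stress response genes were nearly level up to bin 5 (1598 and 1769 CPM) and higher in bin 6 (2239 and 2629). Neutrophil chemoattractants went up across the bins of KPC-shV from 281 to 961 CPM in bin 5 and stood at 834 in bin 6, while in KPC-shZEB1 they peaked at 339 CPM in bin 3 and stood at 191 and 238 in bins 5 and 6.

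**Figure D4:**
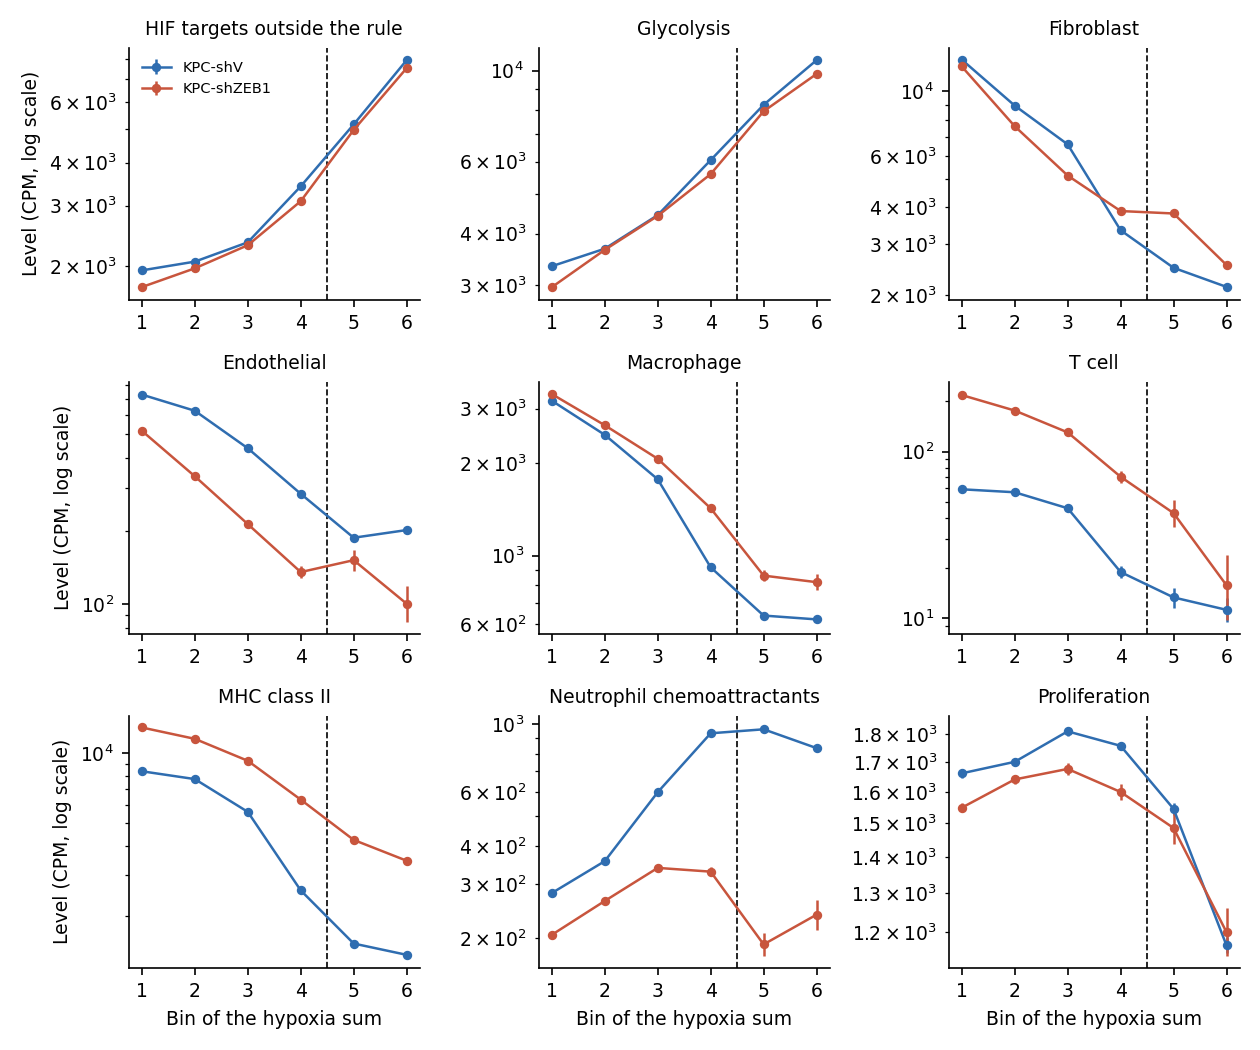
Level of 9 gene lists (y axis, CPM on a log scale) in 6 bins of the hypoxia sum (x axis), with KPC-shV in blue, KPC-shZEB1 in red, exact Poisson 95% intervals as bars and the cutoff dashed. HIF target and glycolysis curves nearly coincide, stromal and immune curves fall, proliferation drops in bin 6 to 1168 and 1199.8 CPM, and the chemoattractant curves part.

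Across all 7749 genes tested, 318 were higher and 637 lower in hypoxic spots by at least 1.5-fold in KPC-shV, 506 and 656 in KPC-shZEB1, and 240 and 485 in both. The 240 shared higher genes were 75.5% of the KPC-shV and 47.4% of the KPC-shZEB1 higher genes, and the shared lower genes 76.1% and 73.9%. Ranked by the smaller of the 2 libraries' ratios, the leading gene was Rnf186, a RING-type ubiquitin ligase of epithelia, with 29.4 against 4.69 CPM in KPC-shV and 35.8 against 4.92 CPM in KPC-shZEB1 (log2 ratios of 2.65 and 2.86). Smtnl2, a smoothelin-like gene, was 56.2 against 9.66 CPM in KPC-shV and 46.3 against 7.76 CPM in KPC-shZEB1. Ero1l, Pgf, Hilpda, 1600014C23Rik (log2 ratios of 2.25 and 3.14), Ak4, Vldlr and Tmem95 (log2 ratios of 1.93 and 2.13) were also among the 10. The core ACGTG was in the promoter windows of 5 of the 9 genes among them with a window, Rnf186 and Smtnl2 not among them. Of the 10 lowest, 6 were immunoglobulin genes, which plasma cells make in large amounts. Igkc, the kappa light chain constant region, stood at 20.95 CPM in the hypoxic and 506 in the other spots of KPC-shV, and 204 and 7179 CPM in those of KPC-shZEB1, and Ighg2b, Ighj1, Ighm, Ighg2c and Igha had log2 ratios of -3.56 or lower in KPC-shV and -3.99 or lower in KPC-shZEB1. Constant regions of related immunoglobulin genes are near-identical, so which of them a probe counted is uncertain. The others were Sfrp1, a secreted Wnt antagonist of fibroblasts (13.4 against 160.3 CPM in KPC-shV and 10.4 against 185 CPM in KPC-shZEB1), Svep1, a matrix protein (log2 ratios of -3.53 and -4.12), Itm2a (log2 ratios of -3.88 and -2.95) and Serpina3g, an interferon-induced serpin (log2 ratios of -3.20 and -2.94). The plasma cell gene Jchain, outside this ranking, was 0.756 against 10.9 CPM in KPC-shV and 3.304 against 143 CPM in KPC-shZEB1.

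**Figure D5:**
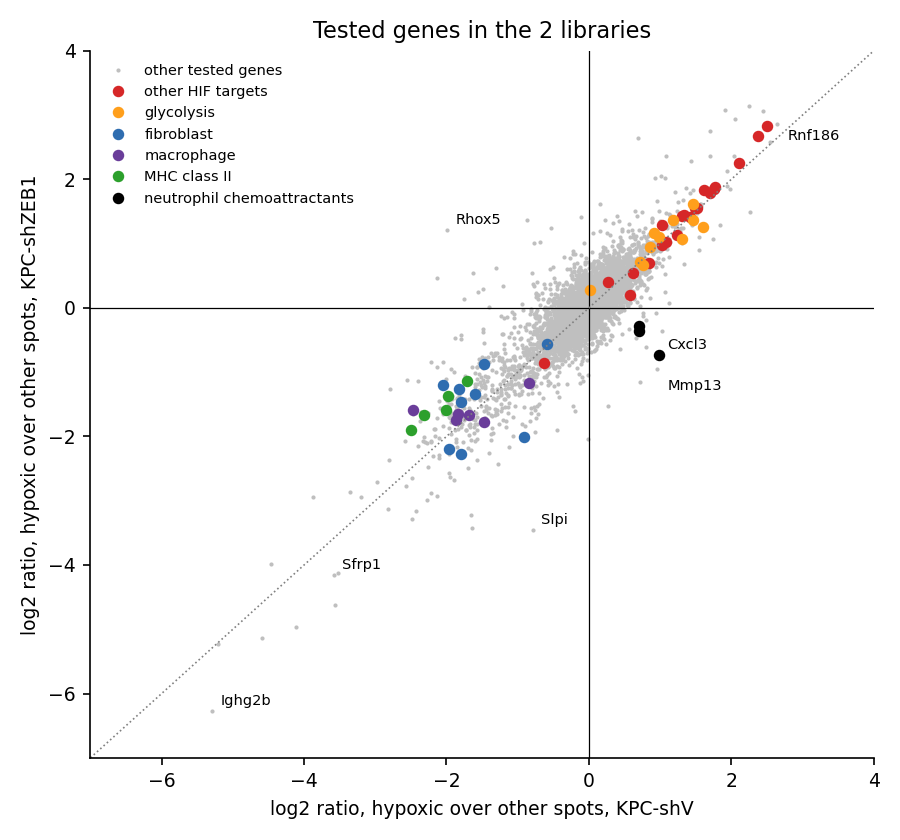
Log2 ratio of level in hypoxic over other spots for each of the 7749 tested genes in KPC-shV (x axis) and KPC-shZEB1 (y axis), with 6 lists in color and equality dotted. Most genes lie near the origin, HIF targets and glycolysis at the upper right, fibroblast, macrophage and MHC class II genes at the lower left, and Rhox5 (-1.99 and 1.21), Mmp13 and the chemoattractants off the diagonal.

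Within the hypoxic spots, 669 of 8008 genes (8.35%) were higher and 601 (7.50%) lower by at least 1.5-fold in KPC-shZEB1 than in KPC-shV. Of all these, 49.1% were past 1.5-fold in the same direction in the other spots too. The 5 highest were the acinar genes Clps, Pnlip, Cela2a and Cela3b and the trypsin-like 2210010C04Rik, of which Pnlip and Cela2a belong to the acinar limit. Cela2a, an elastase, stood at 465 CPM in KPC-shZEB1 and 10.8 CPM in KPC-shV, although every spot was under the limit. All 8 acinar genes outside the rule were higher by at least 1.5-fold in KPC-shZEB1. Their summed level was 837 CPM in the hypoxic and 573 in the other spots of KPC-shZEB1, and 31.9 and 62.7 CPM in those of KPC-shV. A minority of spots carried much of that sum, since per hypoxic spot of KPC-shZEB1 the median was 377 CPM and the upper quartile 1957. The log2 ratio between the libraries' hypoxic spots was 4.71, and 4.11 with the acinar limit at 0.5% and 4.07 without the neutrophil limit. Ctrl, a chymotrypsin-like protease, had the most UMIs of these genes at 224 CPM. The 5 selection acinar genes summed to 1755 CPM in the hypoxic spots of KPC-shZEB1, and none of them was at 0. With the acinar limit at 0.5% of UMIs, 67 hypoxic spots were left in KPC-shZEB1 and 479 in KPC-shV. With that limit the libraries' hypoxic spots differed, KPC-shZEB1 over KPC-shV, by log2 ratios of 1.42 for T cell genes, 1.55 for MHC class II genes and -2.03 for the neutrophil chemoattractants, against 1.44, 1.45 and -2.13 with the limit at 2%. Without the neutrophil limit the same ratios were 0.60, 1.599 and -1.95, so that the T cell ratio was the one that moved most. The 5 lowest were Tnfrsf26, a TNF receptor family member (12.96 CPM in KPC-shZEB1 against 125 in KPC-shV), Myo3b, a myosin (10.9 against 73.5), Ccbe1, a lymphatic growth cofactor (21.6 against 129.7), Cxcl14, a chemokine (27.4 against 159), and the tight junction gene Cldn6 (11.4 against 62.9). In each of these pairs KPC-shZEB1 comes first. All 5 were also lower in the other spots, with log2 ratios of -2.37 for Tnfrsf26 and -1.08 for Cxcl14.

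Between the libraries, T cell, MHC class II and interferon-induced genes differed inside the hypoxic spots in the same direction as outside them. T cell genes were higher in KPC-shZEB1 by log2 ratios of 1.44 (95% interval 1.14 to 1.73) in hypoxic and 1.92 (95% interval 1.88 to 1.97) in other spots. In hypoxic spots this T cell ratio was 0.60 without the neutrophil limit and 0.49 with the cutoff at the 90th percentile. MHC class II genes were higher in KPC-shZEB1 by 1.45 (95% interval 1.43 to 1.48) and 0.87 (95% interval 0.86 to 0.87), and interferon-induced genes by 1.13 (95% interval 1.08 to 1.17) and 1.14 (95% interval 1.13 to 1.15). Per hypoxic spot the interferon-induced genes had medians of 512 CPM in KPC-shV and 686 in KPC-shZEB1. Their lower quartiles were 237 CPM in both and their upper quartiles 844 and 1859, so a part of the spots carried the pooled ratio. HIF targets outside the rule were nearly equal (-0.13 (95% interval -0.15 to -0.11) in hypoxic spots), which the same cutoff on the hypoxia sum chose in both libraries. Cxcl16, the chemokine that the study examines downstream of ZEB1, stood at 423 CPM in the hypoxic and 488 in the other spots of KPC-shV, and 312 and 498 CPM in those of KPC-shZEB1, and Gzma, a granzyme of cytotoxic lymphocytes, at 3.56 CPM in the hypoxic spots of both. Neither was past 1.5-fold between the hypoxic spots of the libraries.

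Among genes with at least 50 CPM in the higher group of spots of each library, the contrast of hypoxic with other spots differed most between the libraries for a small set. Rhox5, a homeobox gene of the X-linked reproductive cluster that cancer cells can express, stood at 41.00 CPM in the hypoxic and 163 in the other spots of KPC-shV, and 377 and 164 CPM in those of KPC-shZEB1, lower in hypoxic spots of KPC-shV and higher in those of KPC-shZEB1. Anxa10, an annexin, was 35.8 against 57.6 CPM in KPC-shV and 135 against 66.9 CPM in KPC-shZEB1, Lgals2, a galectin, 33.7 against 113 CPM in KPC-shV and 104 against 95.03 CPM in KPC-shZEB1, and Reg1, a regeneration gene of stressed acinar tissue, 23.1 against 107 CPM in KPC-shV and 231 against 414 CPM in KPC-shZEB1. Ctrb1, an acinar gene of the rule, was the other of the 5. On the opposite side, Mmp13, a collagenase, stood at 270.3 CPM in the hypoxic and 139.6 in the other spots of KPC-shV, and 76.5 and 148 CPM in those of KPC-shZEB1, and Cxcl3, a neutrophil chemoattractant, at 81.9 against 41.4 CPM in KPC-shV and 31.3 against 51.8 CPM in KPC-shZEB1. Slpi, an inhibitor of neutrophil elastase, was 33.4 against 57.6 CPM in KPC-shV and 38.6 against 423 CPM in KPC-shZEB1, Ccl5, a T cell and NK cell chemokine, 28.4 against 88.5 CPM in KPC-shV and 30.8 against 329 CPM in KPC-shZEB1, and Cxcl14 159 against 217 CPM in KPC-shV and 27.4 against 103 CPM in KPC-shZEB1. For Slpi and Ccl5 the hypoxic spots of both libraries were close and the larger difference lay in the other spots.

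Hypoxia genes were not confined to spots poor in neutrophil genes. Of the KPC-shV spots removed by the neutrophil limit alone, 384 of 440 (87.3%, exact binomial 95% interval 83.8 to 90.2%) exceeded the same hypoxia cutoff, and 3 of 17 in KPC-shZEB1. The 384 hypoxic KPC-shV spots over the limit had a summed level of the 8 selection genes of 4193 CPM and of the other HIF targets of 8401 CPM, against 2836 and 6398 CPM in the hypoxic spots poor in neutrophil genes. By the HIF targets outside the rule, KPC-shV spots poor in neutrophil genes thus lay lower in the hypoxic range than those rich in them. The levels of the 8 selection genes are a description. Stress response genes (2796 against 1884 CPM), Hmox1 (464 against 251 CPM) and Cd274, the checkpoint ligand PD-L1 (142 against 48.4 CPM), were also higher over the limit, and fibroblast genes lower (1053 against 2327 CPM). T cell genes were at 12.6 and 12.4 CPM, log2 ratio 0.02 (95% interval -0.26 to 0.30), and epithelial genes at 9523 and 9255 CPM. Chemoattractants were at 1082 against 904 CPM, and Cxcl5 was level at 659 and 659 CPM. The neutrophil genes outside the rule were at 484 against 141 CPM. The groups were split on S100a8 plus S100a9, so this difference and that of the chemoattractants were not ranked.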

How the data were processed

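Gene expression was measured in spots of 2 tumor sections, 1 library per condition, with probe-based Visium CytAssist. The authors ran Space Ranger 2.0.1 against mm10, as the submitters' processing notes also name it, and deposited filtered matrices of UMI counts per gene and spot, which were used as deposited. Positions of spots and images were left out. Of 19465 features, 11 repeat a symbol, and the UMIs of Aldoa and of Ddit3 were summed over 2 identifiers each. Mxi1, Higd1a, Tpi1, Eno1, Ldha, Ndufa4, Cox4i1, Cox5a, Rrm2, Krt18, Cxcl2, Isg15 and Hba-a1 are listed in the gene lists but not among the features used here.

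UMIs were pooled over the spots of a group and divided by the group's total, in CPM, with exact Poisson 95% intervals. Log2 ratios had exact conditional binomial intervals and shares exact Clopper-Pearson intervals. No test was made, since there was 1 library per condition and spots are not replicates, and "past 1.5-fold" is a call by size. Genes compared had at least 20 CPM in the higher group of spots of each library, or of the hypoxic spots of either library, and the genes of the selection were left out of the first of these. The genes named were those of 39 lists, the 10 highest and 10 lowest of hypoxic over other spots by the smaller of the libraries' ratios, the 5 at each end of the difference between libraries at 50 CPM or more in the hypoxic spots of either, and the 5 at each end of the difference between their contrasts at 50 CPM or more in the higher group of spots of each. The rule, the lists and the comparisons were chosen with earlier results of these data known. A few of the genes so named, and the alleles of the KPC mice, are not reported here.

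No deconvolution and no doublet caller was run. Alternatives were other percentiles, 5 marker genes alone, a deeper UMI minimum, the neutrophil and acinar limits, thinning, selection on a random part of the UMIs, the mean over spots, median-of-ratios scaling, and other minimum levels. The ratios were tested on simulated data. Python 3.11.15, numpy 2.4.6, scipy 1.17.1, pandas 2.3.3 and matplotlib 3.10.9 were used, with gene positions from GENCODE M21 and promoter windows from RefSeq, both on GRCm38.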

Additional observations from a re-analysis of the deposited data

Results flagged for a closer look

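Some contrasts of hypoxic with other spots pointed in opposite directions in the libraries, each past 1.5-fold for the genes, and are listed here because of that. With 1 library per condition the difference was not tested, and the tumor, the section and the knockdown cannot be told apart. The values below are the log2 ratio in KPC-shZEB1 minus that in KPC-shV.

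The genes with the higher contrast in KPC-shZEB1 were led by Rhox5, the homeobox gene, with a difference of 3.20. Rbp4, the retinol carrier, stood at 36.00 against 65.7 CPM in KPC-shV and 42.2 against 16.4 CPM in KPC-shZEB1 in hypoxic against other spots, a difference of 2.23. For 2210010C04Rik, the trypsin-like gene, it was 1.92, for Bace2, a membrane protease at 23.6 against 40.2 CPM in KPC-shV and 87.7 against 43.5 CPM in KPC-shZEB1, 1.78, and for Anxa10, an annexin, 1.70. The acinar genes outside the rule, taken as a list, differed by 1.52.

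For the genes with the higher contrast in KPC-shV, the difference was -1.90 for the collagenase Mmp13, -1.87 for Acod1, the itaconate-producing enzyme of activated myeloid cells, -1.71 for the neutrophil chemoattractant Cxcl3 and -1.40 for Ltf, lactoferrin, which stood at 409 against 235 CPM in KPC-shV and 107 against 163 CPM in KPC-shZEB1. The level of Acod1 was 24.4 against 14.9 CPM in KPC-shV and 17.8 against 39.7 CPM in KPC-shZEB1. Without the neutrophil limit the contrast of Acod1 in KPC-shZEB1 was 0.33, so that both libraries then had the same sign. The other results named here kept opposite signs under the alternatives run, but not all stayed past 1.5-fold. Nearest to 0, the KPC-shZEB1 contrast was 0.016 for 2210010C04Rik, 0.023 for the acinar list, -0.13 for Ltf, -0.37 for Cxcl3 and 0.53 for Rhox5, and the KPC-shV contrast was -0.35 for Anxa10, -0.57 for Bace2 and 0.51 for Ltf.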

How the results depend on the processing

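The share of KPC-shZEB1 spots above the cutoff followed the cutoff: it was 10.6% at the 70th percentile, 1.95% at the 90th, 8.93% with the percentile over both libraries and 2.22% without the neutrophil limit, which raised the KPC-shV percentile. The HIF targets outside the rule were higher in hypoxic spots under every alternative run. Their log2 ratio in KPC-shV was 1.28 at the 70th and 1.52 at the 90th percentile, 1.36 with 5 marker genes alone, 1.39 at a minimum of 20000 UMIs, 1.59 without the neutrophil limit, 1.35 on thinned spots, 1.44 as a mean over spots and 1.41 with median-of-ratios scaling. In KPC-shZEB1 the same alternatives gave, in that order, 1.25, 1.78, 1.42, 1.51, 1.84, 1.43, 1.47 and 1.44. The acinar limit of 0.5% gave 1.51. Counts of genes past 1.5-fold moved with the minimum level by construction. Without a minimum they were 827 higher and 2687 lower in KPC-shV, 2438 and 3585 in KPC-shZEB1, 456 and 1745 in both, and 3792 and 2360 between libraries, and at 100 CPM or more they were 126 and 139, 189 and 153, 101 and 112, and 194 and 201. Without the neutrophil limit 488 genes were higher in KPC-shV and 371 in both, of which 228 were among the 240. Among ratios past 1.5-fold few signs turned, and the cause was not tested. In the contrast of KPC-shZEB1 these were the other neutrophil genes (0.33), Acod1 (0.33) and Il1b (0.50) without the neutrophil limit, and Cela3b at the 90th percentile (-0.011) and without that limit (-0.045). Between the libraries they were Ighg2c at the 90th percentile (-0.87) and without the neutrophil limit (-1.14), Mzb1 without the neutrophil limit (-0.57) and at the acinar limit of 0.5% (-1.42), and Gcg with selection on a random part of the UMIs (0.24). Of 53 list ratios past 1.5-fold, 52 kept their direction under all alternatives run and 43 also their call, and of 418 gene ratios 412 and 341. Of the ratios under 1.5-fold, whose signs are less firm, 19 of 64 for lists and 115 of 380 for genes turned under at least 1 alternative. Those for lists included redox and iron genes in KPC-shV (from -0.08 to 0.31) and dendritic cell genes between the libraries (from 0.34 to -0.17), both without the neutrophil limit, adipocyte genes in KPC-shZEB1 at the acinar limit of 0.5% (from -0.36 to 0.57), and the HIF machinery and mesenchymal lists, which stayed near 0. The T cell ratio between the libraries' hypoxic spots, 1.44, was 0.60 without the neutrophil limit and 0.49 at the 90th percentile. Few spots limit KPC-shZEB1: only 26 remained at the 90th percentile.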

Other observations

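Several lists described other tissues and processes in and around the hypoxic spots. Plasma cell genes summed to 83.3 CPM in the hypoxic and 129.5 in the other spots of KPC-shV, and 145 and 330.4 CPM in those of KPC-shZEB1, with log2 ratios of -0.64 and -1.19. Xbp1, a secretory factor that epithelial cells also express, stood at 80.8 against 115 CPM in KPC-shV and 138 against 159.5 CPM in KPC-shZEB1, and was the one of the 4 genes past the minimum (log2 ratios of -0.51 and -0.21). It gave most of the sum in the hypoxic spots of both libraries and in the other spots of KPC-shV, whereas in the other spots of KPC-shZEB1 Jchain (143 CPM) and Mzb1, a plasma cell chaperone (23.3 CPM), together exceeded it. In hypoxic spots Mzb1 stood at 0.756 and 1.78 CPM. Islet hormone genes summed to 3.74 against 12.02 CPM and 5.08 against 48.4 CPM, so that hypoxic spots held little islet RNA. Adipocyte genes stood at 6.41 and 22.1 CPM in the hypoxic spots (log2 ratios of 0.12 and -0.36). The mesothelial list had log2 ratios of -0.16 and 0.15, nearly all of it from Msln, a surface protein that pancreatic tumor cells also make (255 against 284 CPM in KPC-shV and 302 against 274 CPM in KPC-shZEB1).

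Matrix proteases were mixed, with log2 ratios of -0.08 and -0.45 for the list. Mmp2, a gelatinase typical of fibroblasts, was 43.8 against 145 CPM in KPC-shV and 40.4 against 151 CPM in KPC-shZEB1, while Plaur, the urokinase receptor, was 231 against 186 CPM in KPC-shV and 226 against 155 CPM in KPC-shZEB1. Checkpoint and adenosine genes had log2 ratios of 0.14 and -0.06 as a list. Nt5e, the ectoenzyme CD73 that produces adenosine, stood at 142 against 93.9 CPM in KPC-shV and 105 against 64.9 CPM in KPC-shZEB1, and Entpd1, the ectoenzyme CD39 that acts before it, at 14.3 against 45.4 CPM in KPC-shV and 16.01 against 58.1 CPM in KPC-shZEB1, so that the pair of enzymes pointed in opposite directions. Pyroptosis genes had log2 ratios of -0.33 and -0.17, with the pore-forming Gsdmd at 125 against 184 CPM in KPC-shV and 285 against 331 CPM in KPC-shZEB1 and Casp1, the inflammasome protease, at 50.5 against 94.8 CPM in KPC-shV and 95.6 against 174 CPM in KPC-shZEB1. The squamous list had log2 ratios of 0.74 and 1.43, carried by Sprr1a and Ivl, the mesenchymal list log2 ratios of -0.01 and 0.20, the cell cycle inhibitors log2 ratios of 0.44 and 0.66, the angiogenic ligands log2 ratios of 0.19 and 0.26, the HIF machinery log2 ratios of 0.03 and 0.00 and the macrophage state list log2 ratios of 0.21 and 0.17. The genes that the study follows in other assays had log2 ratios of 0.15 and 0.15 as a list, most of it from Spp1 and Cd44, the adhesion receptor that binds osteopontin (1499 against 1304 CPM in KPC-shV and 1229.6 against 961 CPM in KPC-shZEB1).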
